A study of Mus musculus with 4 samples.

Results

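A set of 9 genes of the acute-phase and STAT3 pathway was followed through fasting and tetracycline treatment in crypts of the mouse small intestine. They were taken by symbol from the deposited tables: the serum amyloid A genes Saa1, Saa2 and Saa3, the lectin gene Mbl2, the feedback inhibitor Socs3, the transcription factor Stat3 and the receptor genes Il22ra1, Il6ra and Osmr. They are 9 of the 27425 genes listed in either table. All 9 were listed without tetracycline and 8 with it, where Saa2 had no row. No listed gene had fewer than 2 counts over a table's libraries. The genes were chosen by their deposited fasting changes, so those changes are a description and carry no test of their own.

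The acute-phase response is a shift in secreted proteins that follows infection, injury or inflammation and is best known from the liver, where interleukin 6 drives it. Cytokines of this group bind a receptor pair on the cell surface, Janus kinases on that receptor phosphorylate STAT3, and STAT3 dimers enter the nucleus and switch on target genes, among them Socs3, whose product shuts the receptor off again. In the gut epithelium the main cytokine of this kind is interleukin 22, made by lymphocytes, and it drives antimicrobial lectins and serum amyloid A.

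All animals were male C57BL/6J mice of 9 weeks, either fed or fasted for 24 hours, and either without tetracycline or given that antibiotic for 21 days. The labels give the drug as a means of depleting what they abbreviate as AKK, and list 1 sample in each of the 4 groups. The whole counts behind the deposited means showed 4 libraries in each table, 2 fasted and 2 fed, and nothing links them to the labelled samples. Each is given below as a single value, library 1 being the one with the larger size factor on its side. No source says whether the libraries came from separate animals. Any p-value then measures only the spread between these libraries, which may be technical.

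The tables held 25522 and 26085 genes, and their means summed to 65863261 normalized counts without and 65327199 with tetracycline. Size factors ran from 0.930 to 1.09 without and from 0.727 to 1.27 with tetracycline. The 2 fasted libraries stood further apart with the drug: the log2 ratio between them had an SD of 0.619 across genes without the drug and 1.10 with it, against 0.569 and 0.773 between the fed libraries. Crypt base stem cell genes, 5 of 5 listed, had means from 647 to 63881 without and from 617 to 56702 with tetracycline. The 10 enterocyte brush border and absorption genes, which mark differentiated cells of the villus, had means from 18258 to 390480 without tetracycline, so the preparations also held RNA of such cells. Immune and stromal genes were also read in every library, so they were not epithelium alone. Fewer cells of a type and less RNA per cell cannot be told apart in such bulk RNA.

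Without tetracycline, 3 of the 7 members that carry an adjusted p were called higher in fasted mice in the authors' deposited table (Saa1, Mbl2 and Socs3) and 0 lower, where 1.06% of all 18100 genes tested were called higher and 1.22% lower. Called means an adjusted p under 0.05 in that table. Of all 9 members 8 had a higher and 1 a lower deposited log2 change. The median over the 7 with an adjusted p was 0.72, against 0.01 over all genes tested. Both fasted libraries lay above both fed libraries in 4 members, Saa1, Saa2, Mbl2 and Socs3, and the sides overlapped in the other 5. Among all genes whose mean reached 50, 21.6% had both fasted libraries above and 25.7% both below.

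With tetracycline, 0 of the 6 members with an adjusted p were called in the authors' deposited table (DESeq2), where 0.333% of 17993 genes were called higher and 0.267% lower. An unadjusted p under 0.05 was found for 1 of them, Mbl2. Of the 8 members 4 had a higher and 4 a lower log2 change, and the median over the 6 with an adjusted p was 0.07, against -0.02 over all genes tested. The sides overlapped in 6 members. Saa1 was above, at 3 counts against 1, and Osmr was below, while 16.0% of genes whose mean reached 50 had both fasted libraries above and 16.5% both below.

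**Figure D1:**
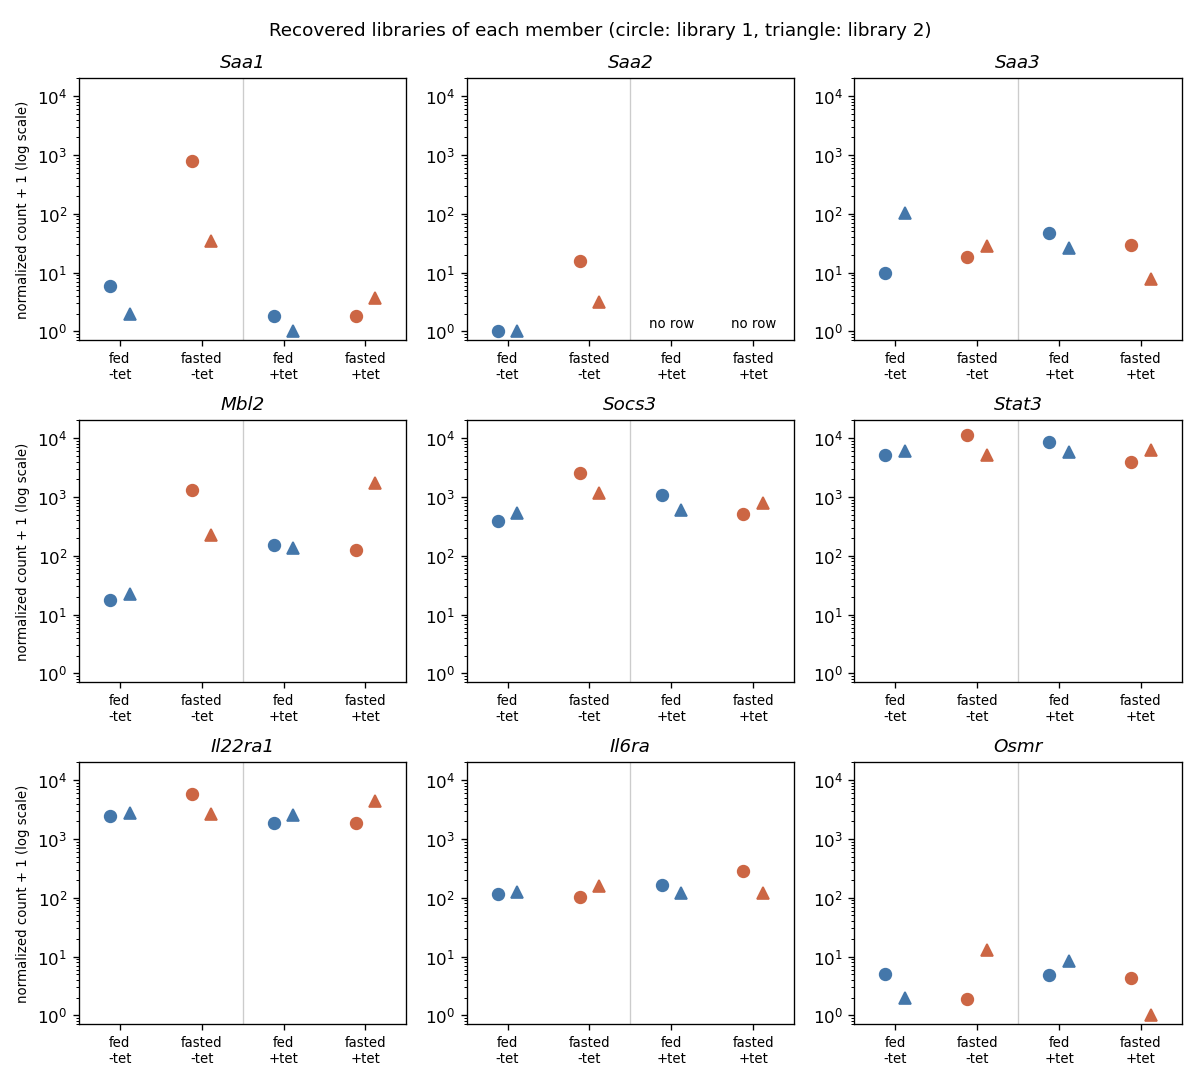
Normalized count plus 1 (log scale) of each member in the recovered libraries, fed in blue and fasted in red, without (-tet) and with (+tet) tetracycline; circles are library 1 and triangles library 2, and the tables were scaled separately. Saa1, Saa2, Mbl2 and Socs3 have both fasted libraries above both fed libraries without tetracycline, and 1 fasted library stands high for Mbl2 in each table.

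The serum amyloid A proteins are small apolipoproteins that travel on high-density lipoprotein and carry retinol. Saa1 and Saa2 are the classical liver forms, which gut epithelium also makes, and Saa3 is made by macrophages, fat and epithelium. The genes lie side by side on chromosome 7 of the mouse (GRCm38, GENCODE release M21): Saa3 at chr7:46711998-46715700 on the minus strand, Saa1 at chr7:46740497-46742980 on the minus strand and Saa2 at chr7:46751790-46754313 on the plus strand. The 5′ end of Saa3 lies 24797 bases from the 3′ end of Saa1, and 8810 bases separate the 5′ ends of Saa1 and Saa2, which face away from each other. The stretch from 200 to 61 bases before each RefSeq start (GRCm38.p6, written along the gene's strand) is shown because it holds a C/EBP match that the near-identical pair shares and NF-kB matches in Saa1 and Saa3. Capitals mark matches to the C/EBP motif TTGCNCAA and to the NF-kB motif.
Saa1, chr7:46743041-46743180, minus strand: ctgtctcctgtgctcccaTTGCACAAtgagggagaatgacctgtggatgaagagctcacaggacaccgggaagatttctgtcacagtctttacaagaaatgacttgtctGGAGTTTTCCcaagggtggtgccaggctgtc
Saa2, chr7:46751633-46751772, plus strand: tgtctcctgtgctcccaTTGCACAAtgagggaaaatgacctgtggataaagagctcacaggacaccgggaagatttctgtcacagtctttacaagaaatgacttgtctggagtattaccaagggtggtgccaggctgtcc
Saa3, chr7:46715737-46715876, minus strand: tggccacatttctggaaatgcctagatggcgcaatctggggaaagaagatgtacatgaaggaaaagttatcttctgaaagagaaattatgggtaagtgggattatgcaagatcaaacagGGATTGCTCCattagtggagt
Over the 250 bases before the start, Saa1 and Saa2 were 94.8% identical, while Saa1 and Saa3 shared 48.2% and Saa2 and Saa3 47.9%. The C/EBP match sits at position -182 of Saa1 and -183 of Saa2 and was not found in Saa3. The NF-kB match at -91 of Saa1 was not found in Saa2, and Saa3 has another at -81. Searched on both strands from 250 bases before to 50 after the start, the C/EBP letters occurred in 2.94% of 32851 promoters and the NF-kB motif in 26.8%. A match is a description of letters and shows no binding.

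Saa1 (ENSMUSG00000074115.6) had 788 and 33.3 normalized counts in the fasted libraries without tetracycline and 4.96 and 1.0 in the fed ones. Both fasted libraries were higher, but 95.9% of the fasted total lay in library 1. The authors' deposited table gave Saa1 a log2 change of 7.10 (SE 1.98, adjusted p 0.0192, DESeq2). On the log2 scale with pseudocount 1, the value was 3.11 without fasted library 1 and at most 7.68 with any other library left out. With tetracycline Saa1 had 1 and 2 counts in fasted against 1 and 0 in fed libraries, too few for a fold change. The fasted total thus went from 890 counts in the table without the drug to 3 counts in the table with it, and the fed total from 6 counts to 1.

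Saa2 (ENSMUSG00000057465.6) had 16 and 2 counts in the fasted libraries without tetracycline and 0 in both fed ones. Set against a floor of 3 counts over the fed side, Saa2 was at least 5.62-fold higher in the fasted group. That bound rests on fasted library 1, which held 16 of the 18 counts, and the log2 change with pseudocount 1 was 2.97 with all libraries and 1.66 without that one. The deposited row of Saa2 carries no adjusted p. Saa1 and Saa2 are close copies: 46.0% of the 31-base words of the Saa1 transcripts also occur in Saa2, and 44.4% of those of Saa2 in Saa1. The counts of the pair are therefore uncertain in how they were split, and Saa2 read as the lower copy in both fasted libraries.

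Saa3 (ENSMUSG00000040026.9) had a lower mean in fasted than in fed mice. There were 17.4 and 26.9 normalized counts in fasted against 8.93 and 102.5 in fed libraries without tetracycline, so that fed library 2 stood above the rest. The authors' deposited table gave Saa3 a log2 change of -1.33 (SE 0.93, adjusted p 0.694, DESeq2). Without fed library 2 the value was 1.22 with pseudocount 1, a change of direction. With tetracycline Saa3 had 28.8 and 6.88 normalized counts in fasted against 45.7 and 24.8 in fed libraries, and the sides overlapped. The authors' deposited table gave -0.96 (SE 0.99) for that change in Saa3.

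In each table the library with the most Saa3 was also the one with the most myeloid marker RNA. The 11 of 11 listed myeloid markers summed to 1430 to 1899 normalized counts in fasted and 2487 to 4246 in fed libraries without tetracycline, the highest sum being in fed library 2, where Saa3 was highest. With tetracycline they summed to 850 to 2518 in fasted and 3108 to 6343 in fed libraries, the highest again in the library highest in Saa3. Of these markers Lyz2, the lysozyme of macrophages, was called lower in fasted mice without the drug (log2 change -1.47, SE 0.42, adjusted p 0.0250 with DESeq2, from the authors' deposited table). All 10 stromal markers were listed too, and their sums ran from 1073 to 1872 in fasted and from 1949 to 3356 in fed libraries without tetracycline. With it they ran from 977 to 2550 in fasted and from 1772 to 4881 in fed libraries, which overlapped. Lymphoid, stromal and pancreatic acinar sums were also highest in the library highest in Saa3 of each table. The match was thus not particular to myeloid markers. Without the drug 3 stromal and 3 lymphoid markers were called lower in fasted mice. The match was not complete: fed library 1 without tetracycline had the least Saa3 of its table, yet a larger myeloid sum than either fasted library. The part of these cells in the Saa3 values was not tested.

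Mbl2 (ENSMUSG00000024863.7, chr19:30232942-30239687, plus strand) encodes mannose-binding lectin C, which binds sugars on microbes and starts the lectin pathway of complement. It had 1326 and 224.8 normalized counts in the fasted libraries without tetracycline and 16.9 and 21.1 in the fed ones. Both fasted libraries lay above both fed ones, with means 40.9-fold apart, and the fed libraries were close to each other. The authors' deposited table gave Mbl2 a log2 change of 5.35 (SE 1.15, adjusted p 0.000501, DESeq2). Without fasted library 1 the value was 3.498 with pseudocount 1. No other gene shares a 31-base word with the Mbl2 transcripts.

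With tetracycline Mbl2 had 124.2 and 1713 normalized counts in fasted against 150.4 and 131.6 in fed libraries. Here 1 fasted library stood at the fed level and the other held 93.2% of the fasted total. The authors' deposited table gave Mbl2 a log2 change of 2.70 (SE 0.93, p 0.00357, adjusted p 0.284, DESeq2). Without fasted library 2 the value turned to -0.18 with pseudocount 1. In fed mice both libraries of the table with tetracycline were above both of the table without it, with means of 141.1 and 19.0. That is a difference of 2.77 on the log2 scale (pseudocount 1, centred on the median of 21925 genes), where 8.38% of genes were higher by at least 1. These levels come from separately scaled tables and were not tested.

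Socs3 (ENSMUSG00000053113.4, chr11:117966079-117970047, minus strand) encodes the suppressor of cytokine signalling that binds the gp130 receptor chain and its Janus kinase and is itself a direct STAT3 target. Of all 9 members, its promoter alone held the STAT motif TTCNNNGAA in the window searched, in 1 copy starting 154 bases before the RefSeq start, and 8.30% of 32851 promoters hold one. The 100 bases around it are shown with the match in capitals.
Socs3, chr11:117969467-117969566, minus strand: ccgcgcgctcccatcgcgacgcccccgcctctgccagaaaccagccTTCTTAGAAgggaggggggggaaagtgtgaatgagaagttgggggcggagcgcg
Without tetracycline Socs3 had 2502 and 1166 normalized counts in fasted against 394.0 and 526.4 in fed libraries. The lower fasted library was still above the higher fed one, and the means were 3.99-fold apart. The authors' deposited table gave Socs3 a log2 change of 1.995 (SE 0.38, adjusted p 3.96e-05, DESeq2), the smallest of the 3 called members in size and the one with the smallest standard error. Leaving out each library in turn gave 1.34 to 2.44, with the lowest value without fasted library 1 and the highest without fasted library 2.

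With tetracycline Socs3 had 501.1 and 789.7 normalized counts in fasted against 1057 and 599.7 in fed libraries, and the sides overlapped. The authors' deposited table gave -0.36 (SE 0.50, DESeq2) for Socs3, and without fed library 1 the value was 0.11. Both sides differed between the tables: both fed libraries were higher with than without tetracycline (centred log2 difference 0.79) and both fasted ones lower (-1.57, where 3.92% of genes were lower by at least 1). As above, this compares separately scaled tables and was not tested.

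**Figure D2:**
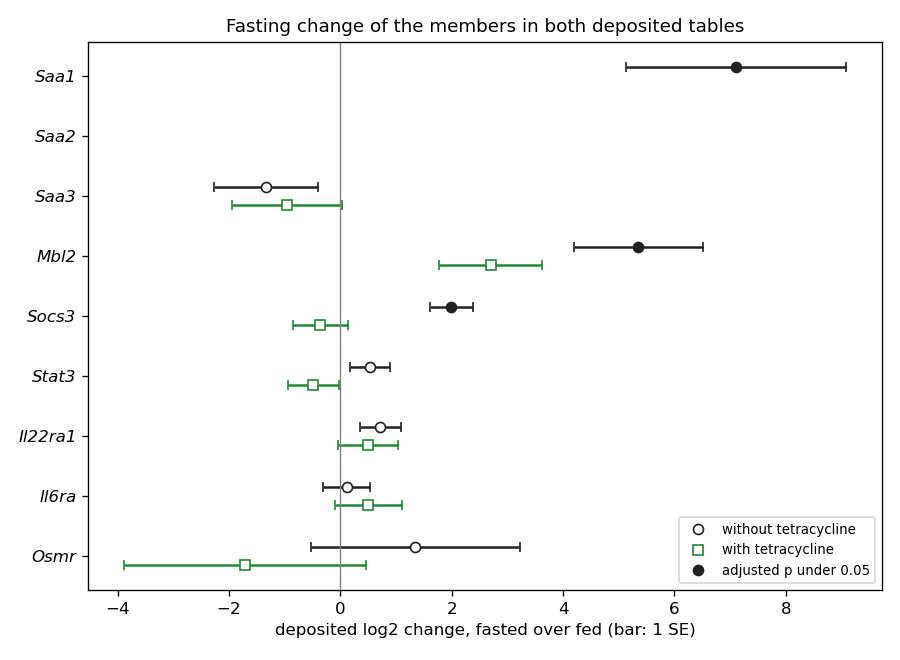
Deposited log2 change, fasted over fed, of each member without (black circles) and with tetracycline (green squares); bars are 1 SE and filled points have an adjusted p under 0.05. Saa2, and Saa1 with tetracycline, are left out for their low counts; Socs3 lies at 1.995 without and -0.36 with tetracycline.

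The change of the fasting response with tetracycline was set out per gene as the log2 change with minus that without the drug, over the combined standard error (a two-sided Wald test, adjusted over 17571 genes). Of these genes 0.0228% were called, 4 in all, and 185 had an unadjusted p under 0.05. For Socs3 the difference was -2.36 (SE 0.63, p 0.000169), with an adjusted p of 0.269 by this Wald test, so it did not pass. With the statistic divided by its robust SD over all genes (0.714), the adjusted p by the same Wald test was 0.000219 and Socs3 was 1 of 32 genes called, and with every row that has a p it was 0.341. The difference was -2.65 (SE 1.481, p 0.0736) for Mbl2 and -1.03 (SE 0.58, p 0.0765) for Stat3 before adjustment. For Saa3, Il22ra1 and Il6ra it lay between -0.22 and 0.39, each within 1 standard error of 0. Saa1 and Osmr were not tested, for want of an adjusted p in a table. The Socs3 contrast was known when the gene was chosen, so none of these values is independent evidence for it.

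Stat3 (ENSMUSG00000004040.17, chr11:100885098-100939540, minus strand) encodes the transcription factor itself, which is switched on by phosphorylation, a step that RNA levels do not measure. It had 11232 and 5260 normalized counts in fasted against 5204 and 6139 in fed libraries without tetracycline. Fasted library 1 stood alone and the other 3 were close together. The authors' deposited table gave Stat3 a log2 change of 0.54 (SE 0.36, adjusted p 0.665, DESeq2), and without fasted library 1 the value was -0.11. With tetracycline Stat3 had 3913 and 6323 normalized counts in fasted against 8534 and 5787 in fed libraries, with a deposited change of -0.48 (SE 0.45) in the authors' deposited table. In each table the fasted library with the higher Stat3 was the one with the higher Socs3, and the same held for the fed libraries.

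The receptor genes differ in the cells that are known to carry them. Il22ra1 (ENSMUSG00000037157.9, chr4:135728172-135752140, plus strand) encodes the epithelial chain for interleukin 22, Il6ra (ENSMUSG00000027947.12, chr3:89864059-89913196, minus strand) the binding chain for interleukin 6, and Osmr (ENSMUSG00000022146.13, chr15:6813577-6874969, minus strand) the oncostatin M chain, best known from stromal cells. Per kilobase of exon, Il22ra1 ran from 716 to 2291 normalized counts over the 8 libraries, Il6ra from 11.8 to 33.0 and Osmr from 0 to 0.977. These ranges did not overlap, so the order of the 3 receptors was the same in every library. On the same scale Stat3 ran from 411 to 1179 and Socs3 from 136.3 to 866, so Stat3 overlapped Il22ra1 above it and Socs3 overlapped Stat3. The range of Socs3 lay above that of Il6ra in all 8 libraries. Mbl2 ran from 15.5 to 1573 per kilobase, the largest ratio of highest to lowest library among the members with more than 20 normalized counts on average in both tables.

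**Figure D3:**
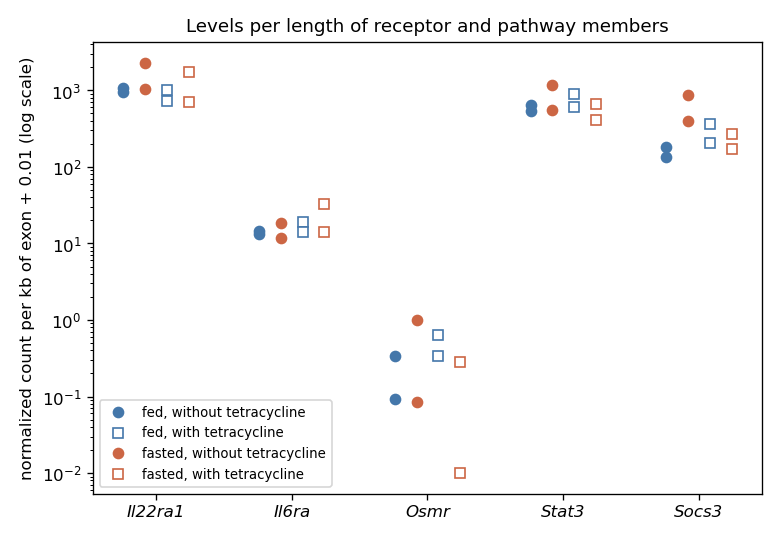
Normalized count per kilobase of exon, plus 0.01 (log scale), of the 3 receptor genes, Stat3 and Socs3 in the 8 recovered libraries (filled circles without, open squares with tetracycline; fed blue, fasted red). Il22ra1 lies between 716 and 2291, Il6ra between 11.8 and 33.0, and Osmr below 1 in all 8.

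Il22ra1 had 5884 and 2663 normalized counts in fasted against 2441 and 2753 in fed libraries without tetracycline. Fasted library 1 was again the high one, and the other fasted library lay between the fed ones. The authors' deposited table gave Il22ra1 a log2 change of 0.72 (SE 0.37, p 0.0502, adjusted p 0.464, DESeq2), and without fasted library 1 the value was 0.04. With tetracycline it had 1839 and 4480 in fasted against 1898 and 2585 in fed libraries. The authors' deposited table gave 0.49 (SE 0.54) for that change in Il22ra1, and without fasted library 2 the value was -0.29.

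Il6ra had 101.8 and 160.2 normalized counts in fasted against 116.1 and 125.6 in fed libraries when no drug was given. With tetracycline the counts were 285.5 and 121.1 against 166.2 and 120.8. The fed libraries lay between the fasted ones without tetracycline, and the sides overlapped with it. The authors' deposited table gave Il6ra changes of 0.11 (SE 0.43) and 0.51 (SE 0.59), and either turned negative, to -0.24 in each case, without the higher fasted library. Osmr had 1 and 11 counts in fasted against 4 and 1 in fed libraries when no drug was given, but 4 and 0 against 5 and 7 with tetracycline. At these counts no difference was detectable: the deposited changes in the authors' deposited table were 1.35 (SE 1.88) and -1.71 (SE 2.17) with no adjusted p, and without fasted library 2 the first was -0.86 for Osmr.

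The same fasted library stood high for several members. Without tetracycline the log2 ratio of fasted library 1 to library 2 was 4.52 for Saa1, 2.56 for Mbl2, 1.14 for Il22ra1, 1.10 for Socs3 and 1.09 for Stat3, with pseudocount 1. Of 8117 genes with a mean of at least 50, 0.0616% had a ratio as large as Saa1, 0.16% as Mbl2 and between 3.17% and 3.40% as the other 3. The ratio was negative for Saa3 (-0.60), Il6ra (-0.65) and Osmr (-2.74). With tetracycline fasted library 2 was the high one, with ratios of -3.77 for Mbl2 and -1.28 for Il22ra1, and 0.121% and 4.37% of 8253 genes had a ratio as far in that direction. The ratio went the other way for Saa3 (1.92), Il6ra (1.23) and Osmr (2.10, at 4 and 0 counts), and 8.13%, 14.9% and 6.59% of genes had one at least as large. It was -0.69 for Stat3, -0.66 for Socs3 and, at 1 and 2 counts, -1.04 for Saa1, each smaller in size than the SD of 1.10 across genes.

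Genes of the distal small intestine differed between the same fasted libraries. The list holds 5 genes, the bile acid carriers Fabp6, Slc10a2, Slc51a and Slc51b and the ileal hormone Fgf15, all listed. All 5 summed to 24700 and 9823 normalized counts in fasted libraries 1 and 2 without tetracycline and to 30619 and 37057 in the fed ones, so that the highest sum was in fed library 2. With tetracycline they summed to 6842 and 24721 in fasted against 23154 and 17898 in fed libraries. Fabp6 held much of the fed sum and was called lower in fasted mice without tetracycline, so the sum was also taken without it, a choice made after its change was seen. The other 4 genes summed to 24117 and 9493 normalized counts in fasted libraries 1 and 2 without tetracycline, and to 17216 and 18473 in the fed ones. With tetracycline they summed to 6114 and 20286 in fasted against 8798 and 8375 in fed libraries. In each table the fasted library with more Mbl2 and Il22ra1 RNA was the one with the larger sum, with or without Fabp6. The fed libraries without tetracycline had larger sums than fasted library 2 and yet less Mbl2, Saa1 and Socs3. Genes of the proximal small intestine did not, in sum, show the reverse order. Counts were recovered for 3 of the 6 on that list, Onecut2, Cybrd1 and Gata4, which summed to 16594 and 16157 in fasted libraries 1 and 2 without tetracycline. Gata4 was the most abundant of them and weighed most in that sum. Onecut2 alone did go the reverse way there, at 4740 and 5809 normalized counts. With the drug the 3 genes summed to 13313 and 18631, so the larger sum was in the same fasted library as for the distal genes. Fabp1, a fatty acid carrier on the proximal list, was called higher in fasted mice without tetracycline, at 1.08 (SE 0.27, adjusted p 0.00656 with DESeq2, per the authors' deposited table). Cell type genes differed between the fasted libraries too. Crypt base stem cell genes summed to 9744 and 11035 in fasted libraries 1 and 2 without tetracycline and to 15039 and 5137 with it. The Paneth cell gene Mmp7 had 11507 and 13541 without and 18214 and 4645 with the drug. Both were lower in the fasted library with more Mbl2. Of the cell type lists with recovered counts, the adipocyte sum alone was higher in that library. The part of gut position or cell type in the members' values was not tested.

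**Figure D4:**
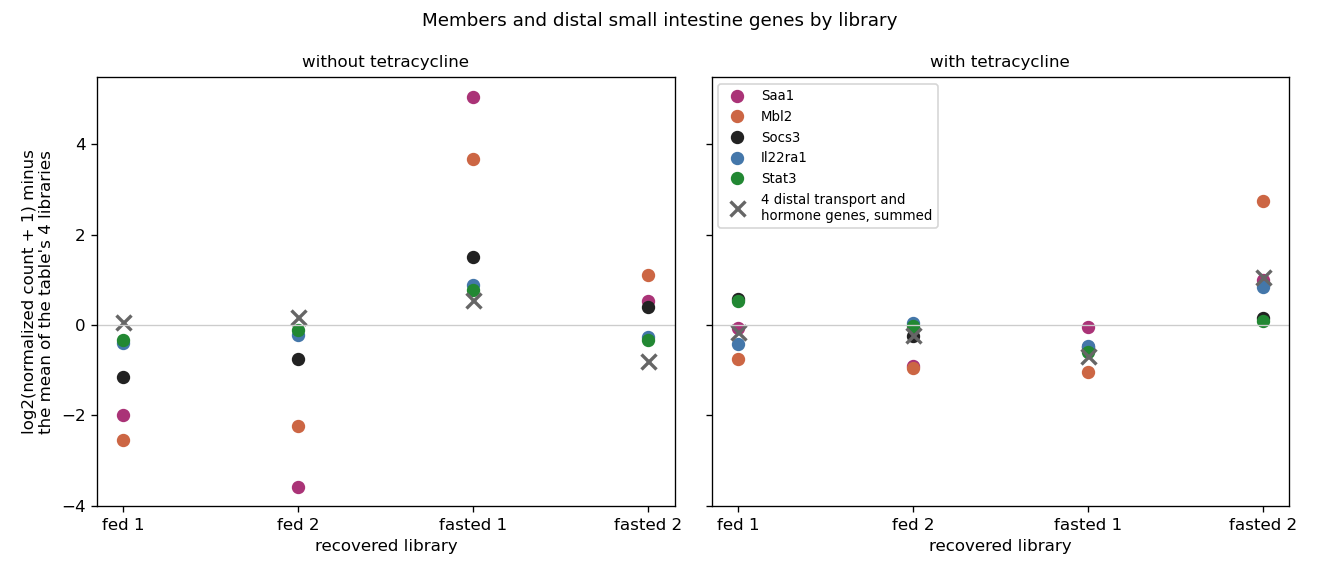
Log2(normalized count + 1) of 5 members and of the sum of Slc10a2, Slc51a, Slc51b and Fgf15 (crosses) in each recovered library, minus the mean of the table's 4 libraries. Without tetracycline Mbl2, Saa1 and this sum, which leaves out Fabp6, are highest in fasted library 1, and with tetracycline Mbl2 and the sum are highest in fasted library 2 (1713 and 20286 normalized counts).

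Hepatocyte genes were also higher in sum in both fasted libraries of each table, and highest in the fasted library lower in Mbl2. Of 10 hepatocyte markers 8 were listed without tetracycline (Cyp8b1 and Mup3 were not listed there), and their sums were 1613 and 2235 normalized counts in fasted libraries 1 and 2 and 1477 to 1492 in fed ones. Most of that came from Hpd and Cyp2e1, enzymes that gut epithelium can also make, and Cyp2e1 was the 1 marker called, at 1.41 (SE 0.42, adjusted p 0.0423 with DESeq2, per the authors' deposited table). The larger fasted sum was in the library with the lower Saa1 and Mbl2. With tetracycline 9 were listed and the sums were 2761 and 1600, again larger in the fasted library with the lower Mbl2, against 1256 and 1483 in the fed ones. Ahsg, a defining secreted liver protein, had 0 counts in both fasted libraries and 1 in each fed library without tetracycline, and 4 and 0 in fasted against 4 and 0 in fed libraries with it. Alb, serum albumin, had 24.8 and 68.8 normalized counts in the fasted mice given no tetracycline against 47.6 and 66.3 in their fed controls. With the drug Alb had 67.5 and 61.9 in fasted against 52.0 and 37.8 in fed libraries, so both fasted libraries lay above both fed ones. The blood proteins Apoh and Serpinc1 had deposited changes of 0.42 (SE 0.53) and 0.74 (SE 0.86) without and 0.32 (SE 0.69) and 0.27 (SE 0.86) with tetracycline, per the authors' deposited tables. Ambp, the precursor of a plasma protease inhibitor and the most abundant secreted protein of the list, went the other way in both tables, at -0.30 (SE 0.32) and -0.37 (SE 0.44). F9, a clotting factor, had 0 and 1 counts in fasted against 4 and 1 in fed libraries without the drug, and 1 and 0 against 3 and 0 with it. None of these secreted proteins was called. Of the 6 markers with an adjusted p, 4 had a higher and 2 a lower change without tetracycline, and 5 a higher and 1 a lower change with it. The part of liver RNA in the members' values was not tested.

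Of 116 other genes of the pathway, placed in 8 lists, 79 carried an adjusted p without tetracycline, and 3 were called higher and 1 lower in the authors' deposited table. That is 5.06% of those tested, against 2.27% of all genes in either direction. With the adjustment run over every row with a p, the calls of Crp (0.0686) and Reg3g (0.0554) ended, and at a threshold of 0.01 Reg3b alone was left. With tetracycline 1 of 78 was called, or 1.28% against 0.600% of all genes. When both tables were compared, 0 of 77 were called by the Wald test for the difference, with 3 at an unadjusted p under 0.05.

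Cytokines that activate STAT3 had no calls. Of 17 genes 12 were listed in each table, but only 7 without and 6 with tetracycline had an adjusted p. Of those 0 were called by DESeq2 and 0 had an unadjusted p under 0.05, with medians of 0.00 and -0.06. Il22 was listed in neither table, and Il6 was listed only with tetracycline, at 3 counts in 1 fed library. The most abundant were Lif, whose product acts through gp130, at a mean of 186.1 without and 154.2 with tetracycline, and Ctf1, cardiotrophin 1, at 153.9 and 150.9. The authors' deposited table gave Lif changes of 0.14 (SE 0.35) and 0.12 (SE 0.57) and Ctf1 changes of 0.00 (SE 0.38) and 0.21 (SE 0.54).

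Of 13 other receptor chains 12 were listed and 0 of 11 tested were called in either table, with medians of -0.18 and -0.15. At an unadjusted p under 0.05 there was 1 without tetracycline, Il21r, and 3 with it, Il21r, Il27ra and Il22ra2, all lower in fasted mice. Il21r, a receptor of lymphocytes, had 195.4 and 357.0 normalized counts in fasted against 536.9 and 690.2 in fed libraries without the drug. Il10rb, the partner chain of Il22ra1, had a mean of 5189 without tetracycline and a change of 0.31 (SE 0.31) in the authors' deposited table. Il6st, the gp130 chain shared by the receptors for interleukin 6 and oncostatin M, had a mean of 1604 and a change of 0.58 (SE 0.30, adjusted p 0.475, DESeq2). Both were highest in fasted library 1: Il10rb had 6978 normalized counts there and 4051 to 5225 in the other libraries, and Il6st had 2315 and 1528 normalized counts in fasted libraries 1 and 2 against 1335 and 1239 in the fed ones, so that its sides did not overlap. With tetracycline Il6st had 1459 and 1959 in fasted against 1710 and 1389 in fed libraries.

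Janus kinases and the other STAT genes were all listed and 0 of 9 were called in either table, with medians of -0.07 without and -0.40 with tetracycline, where all 9 had a deposited change below 0 and 1 an unadjusted p under 0.05 (0 without the drug, DESeq2). With tetracycline the 9 summed to 51734 normalized counts in fed library 1, 41231 in fed library 2 and 30885 and 40884 in fasted libraries. Fed library 1 also had the largest lymphoid and myeloid marker sums of that table. The part of such cells in these changes was not tested. Stat6, the factor for interleukin 4 signals, had a mean of 8481 without tetracycline and changes of -0.01 (SE 0.26) and -0.25 (SE 0.37) in the authors' deposited tables. Jak1, a kinase on most of these receptors, had a mean of 7820 and changes of 0.13 (SE 0.25) and -0.27 (SE 0.41) in the authors' deposited tables. Among 8 inhibitors of STAT signalling, again all listed, 0 were called in either table, and 0 had an unadjusted p under 0.05 (DESeq2), with medians of -0.07 and -0.32. Socs2, a relative of Socs3, had a mean of 3187 without tetracycline and changes of -0.13 (SE 0.25) and 0.13 (SE 0.40) in the authors' deposited tables. Ptpn6, a phosphatase found mostly in blood cells, had a mean of 3232 and changes of -0.22 (SE 0.27) and -0.81 (SE 0.48) in the authors' deposited tables.

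STAT3 targets other than Socs3 form the largest tested list. All 21 were listed and tested, and without tetracycline 2 were called higher and 1 lower, where 1.06% and 1.22% of all genes were. The median change was 0.25 without and -0.18 with tetracycline, with 14 and 9 genes higher, 7 and 12 lower, and 7 and 4 at an unadjusted p under 0.05 (DESeq2). The share of all genes at that unadjusted p in each table is not given here, so such counts cannot be weighed against it. Reg3b, a secreted antimicrobial lectin, had a log2 change of 4.56 (SE 0.91, adjusted p 0.000112) with DESeq2, per the authors' deposited table. Its relative Reg3g had 3.07 (SE 0.92, adjusted p 0.0393) with DESeq2, per the authors' deposited table. Birc5, which guards dividing cells, had -1.0 (SE 0.28, adjusted p 0.0213) with DESeq2, per the authors' deposited table, with 1195 and 1513 normalized counts in fasted against 3007 and 2410 in fed libraries. With tetracycline Reg3b alone of the 21 was called, at 3.84 (SE 0.78, adjusted p 0.000415) with DESeq2, per the authors' deposited table. Reg3g was at 0.31 (SE 0.50) there. Reg3b is also made by Paneth cells, and all 7 Paneth cell markers had a higher deposited change in fasted mice in both tables, with medians of 1.15 without and 1.18 with tetracycline, of which 5 and 0 were called. Their part in the Reg3 values was not tested.

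Among other acute-phase proteins, of 22 genes 16 were listed in each table, only 6 and 5 had an adjusted p, and the median changes of those were 1.54 and 0.52, with 3 and 0 at an unadjusted p under 0.05 (DESeq2). Crp, C-reactive protein, was the 1 gene called, without tetracycline, at 66.1 and 100 normalized counts in fasted against 18.9 and 25.1 in fed libraries. The authors' deposited table gave Crp a change of 1.92 (SE 0.59, adjusted p 0.0486, DESeq2) and, with tetracycline, 1.18 (SE 0.69), from 64.2 and 163.7 in fasted against 59.1 and 41.0 in fed libraries. Crp was thus higher in both fasted libraries of each table, and without tetracycline its higher fasted library was not the one highest in Saa1 and Mbl2. C3, the central complement protein, was the most abundant of the list, at means of 347 without and 380 with tetracycline, and had changes of -0.85 (SE 1.21) and 0.52 (SE 0.98) in the authors' deposited table.

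The lectin pathway of complement, in which Mbl2 acts, had 0 calls by DESeq2 among 5 genes tested without and 6 with tetracycline, and 0 at an unadjusted p under 0.05, with medians of 0.04 and 0.16. C2, a complement protease, had 654.0 and 291.4 normalized counts in fasted against 314.6 and 341.6 in fed libraries without the drug, high in the same library as Mbl2. With tetracycline C2 had 280.6 and 253.1 against 206.3 and 165.0, and there its higher fasted library was not that of Mbl2. Colec12, a membrane lectin, had 146.8 and 215.1 against 148.9 and 74.3 without the drug. Genes of interleukin 1, interleukin 17 and NF-kB signalling, another route to serum amyloid A, also had 0 calls by DESeq2 among 12 tested in each table, with 0 and 1 at an unadjusted p under 0.05 and medians of 0.02 and -0.25. Tnfrsf1a, a receptor for tumour necrosis factor, had changes of 0.28 (SE 0.32) and 0.49 (SE 0.47) in the authors' deposited tables. Il17rc, an interleukin 17 receptor chain, had -0.23 (SE 0.30) and 0.11 (SE 0.36) in the authors' deposited tables.

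The genes whose library profiles were most like those of the called members were ranked by Pearson r of log2(normalized count + 1), centred within each table, over 8 libraries and 9617 genes. The points share 2 tables and their scaling, so r is a description. Saa1 was most like Krt222 (0.974), Siglecf (0.960), Plag1 (0.958) and Ccnj (0.956), all highest in fasted library 1 without tetracycline. Saa1 had 0 to 2 counts in each library with tetracycline, so its r values, those with other members included, rest on the other table and mostly on that library. Mbl2 was most like Pde6a (0.974), Olfr613 (0.970), Abcc10 (0.965) and Ptpn21 (0.963). Pde6a, a photoreceptor phosphodiesterase subunit, had 149.5 and 32.3 normalized counts in fasted against 8.93 and 16.1 in fed libraries without tetracycline. Socs3 was most like Amotl2 (0.968), Arhgap31 (0.948), Inpp1 (0.935) and Eml6 (0.935). Between members r was 0.895 for Saa1 and Mbl2, 0.883 for Saa1 and Socs3, 0.850 for Mbl2 and Il22ra1, 0.842 for Mbl2 and Socs3, 0.784 for Socs3 and Stat3 and -0.413 for Saa1 and Saa3.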

How the data were processed

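RNA was measured in mouse small-intestinal crypts. Crypts were, per the labels' protocols, released with EDTA and dissociated with trypsin, and the library kit keeps no strand. Per the submitters' processing notes, mm10, Salmon and DESeq2 were used, with versions and roles not given in the sources used here. The authors deposited 2 tables, each comparing fasted with fed mice. The authors' deposited mean is a signal, the size-factor normalized count averaged over a table's libraries. The authors' fold change and SE are log2 values, the deposited test statistic is a score, and the deposited p-values were adjusted by the authors over rows that passed their filter. 0 further columns of per-sample values were left unused. The tables' names put fasted before fed, and the change was read in that order, so every direction depends on it.

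The design assumed that only such comparisons would be given, and no count model was used for calls. The means are sums of whole counts times 1 step per library. Solving for the steps gave whole counts for 99.97% and 99.92% of genes with means up to 2000, and for all listed genes named with library values. A set of counts was accepted where its sum met the deposited mean within 0.5 units of digit 15 plus 1.2e-15 of the mean and 1.5e-15. It also had to give the deposited change, within a limit set by the mean, in a negative binomial fit with the dispersion that the deposited SE implies. The median gap of 6.27e-07 and 1.14e-06 log2 units is therefore part of the choice of counts and no independent check. The least row total was 2 counts. The code for the decoding and the Wald test was run on simulated data. That simulation took the steps and the standard errors as given, so it does not check them on the deposited values. Group levels were rebuilt from the mean and change, with pseudocount 1. A floor of 3 counts covers counting error only. Genes with a mean of at least 50 served for library ratios, at least 1 for levels and at least 20 for likeness.

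Deposited Ensembl identifiers carry other versions than GENCODE M21, so coordinates are those of GRCm38 annotations matched by symbol. All 9 members matched a RefSeq promoter. The members, lists and tests were chosen with earlier results of these data known. Genes named are the members, the list genes called in either table or, with fewer than 3 such, the 2 with the highest mean, and the 4 most like each called member, leaving out Gm, Rik and ps names. Lyz2, Cyp2e1, Hpd, Ahsg, Alb, Apoh, Serpinc1, Ambp, F9, Il6, Il22, Il21r, Il27ra, Il22ra2 and the proximal and distal genes were named after their values were seen. Tools were Python 3.11.15, pandas 2.3.3, numpy 2.4.6, scipy 1.17.1, numba 0.67.0, biopython 1.88 and matplotlib 3.10.9. Alternatives were the call threshold, adjustment, scaling, pseudocount, a filter on the mean, the scale of the difference statistic and leaving out each library.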

Additional observations from a re-analysis of the deposited data

How the results depend on the processing

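The tables give comparisons and not samples, so each alternative re-read the deposited values. Of 32 alternatives for the counts, 25 stayed within 1.5 times. For the pathway genes called without tetracycline, 4 became 1 at an adjusted p under 0.01 and 2 with Benjamini-Hochberg over every row, which brings in more rows. For the difference, 0 members became 1 with the robust scale. The count of members lower in fed mice with tetracycline by at least 1, 1 in all (Saa1), became 0 with pseudocount 5. The members at least 1 log2 unit higher in fasted mice, an alternative added after seeing the data, numbered 5 without tetracycline whichever library was left out, though not the same 5: Il22ra1 (1.18) came in for Osmr (-0.86) without fasted library 2, and Saa3 (1.22) for Osmr (0.57) without fed library 2. There was 1 with it, from 0 to 2 with a library left out. Of 171 values for single genes, many of them with no test, 8 changed sign and 10 others moved by more than the spread set for them. Saa1 was no longer called at 0.01. The 8 changed sign with 1 library left out: without tetracycline Saa3 (from -2.16 to 1.22 over the libraries left out), Stat3 (-0.11 to 0.99), Il6ra (-0.24 to 0.40) and Osmr (-0.86 to 1.88), and with it Mbl2 (-0.18 to 3.59), Socs3 (-0.72 to 0.11), Il22ra1 (-0.29 to 0.9985) and Il6ra (-0.24 to 0.99). Beyond the fewer libraries the cause was not tested. Re-centring moved changes by 0.02 and 0.01 at most. No paired analysis was possible because the tables carry no replicate numbers. With 2 libraries a side and Saa2 and Osmr at counts under 20 in all libraries, changes of these genes are limited by depth.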
